A study of Mus musculus with 4 samples.

Results

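The genes described here encode the enzymes, regulators and a transporter of cholesterol synthesis and of fatty acid synthesis, measured in RNA of isolated mouse islets. They were chosen by name, as 36 genes in a sterol arm of 20 and a fatty acid arm of 16, and every array probe annotated with one of these symbols was taken. Of the 36 genes, 35 had a probe (63 probes in all) among 17711 genes with a symbol on the array, and Me1 had none under that symbol. A probe was tested when its signal stood above the negative control beads (detection p below 0.05) in both samples of a genotype, whichever one. This left 30 of the 36 genes, 17 in the sterol arm and 13 in the fatty acid arm, with 38 tested probes. Fdft1, Mvk, Mvd, Gpam and Srebf1 had no probe that met this criterion. A total of 4 arrays was hybridised, 2 with islet RNA of wild type mice and 2 with islet RNA of mice carrying a Pdx1-controlled knockout of the bone morphogenetic protein receptor gene Bmpr1a. All mice were 12 weeks old and on the C57BL/6 background. Pdx1 is expressed in pancreatic progenitors and later mainly in beta cells, so a deletion under its control reaches pancreatic epithelium and the cells derived from it. Whether the controls carried the deleting transgene is not labelled, nor whether a sample was 1 mouse, a pool or a repeat extraction. The p-values therefore reflect the spread among these 4 samples alone, and that spread may be technical.

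Cholesterol is built from acetyl-CoA through mevalonate, isoprenoid diphosphates and squalene, which is epoxidised, closed to lanosterol and trimmed to cholesterol. Fatty acids are built from the same acetyl-CoA through malonyl-CoA, and are then elongated, desaturated and esterified to glycerol. The SREBP transcription factors, held in the endoplasmic reticulum by Insig proteins when sterols are plentiful, drive the transcription of both arms. In beta cells, sterols and unsaturated lipids form part of the membranes of insulin granules, and malonyl-CoA limits the entry of fatty acids into mitochondria.

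The islet hormone transcripts Ins2, Gcg, Sst and Ppy were detected on all 4 arrays, and 14785 to 16171 of 46632 probes were detected per array. The brightest Bmpr1a probe had normalised log2 intensities of 9.68 and 9.69 in wild type and 9.55 and 9.26 in knockout islets, and its change of -0.28 ± 0.14 (SE) did not pass the test (adjusted p = 0.204). The position of that probe relative to the deleted part is not known here, so it does not check the labels. Markers of some other cells differed between the genotypes. All 16 tested lymphocyte markers were lower in knockout islets. Their summed normalised intensity, on the linear scale, was 18349 to 18537 in wild type and 1009 to 1416 in knockout islets. Such sums, here and below, include the offset added to each probe and the background level of undetected probes. Of these markers 7 (Cd3d, Cd3e, Cd3g, Cd2, Ltb, Jchain and Pou2af1) were not detected on either knockout array. Of 15 tested cell cycle genes 13 were lower, with sums of 5641 to 6481 and 2386 to 2904. Among the 15, 5 were not detected on either knockout array. Those 5 and the 7 lymphocyte markers entered the test through the wild type arrays alone, where they are high. Of 16 tested acinar markers 5 were lower, with sums of 99066 to 120786 and 78437 to 84639. Of 10 tested myeloid markers 2 were higher and 3 lower, with sums of 8940 to 10161 and 3749 to 4436. Endothelial markers had 2 of 10 higher (20%) and beta cell markers 3 of 13 higher (23.1%). Duct markers had 1 of 6 higher and 1 lower (16.7% each), and fibroblast markers 1 of 7 lower (14.3%). Among all tested genes 14.5% were higher and 11% lower, so these last counts alone do not set those markers apart. The part of all these cell types in the results below was not tested. In RNA of whole islets, fewer cells of a type and less RNA per cell cannot be told apart.

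Members of both arms changed in both directions. In the sterol arm Sqle and Dhcr7 were higher, and Idi1, Fdps and Pmvk were lower in knockout islets. In the fatty acid arm Acss2, Fads1 and Lpin1 were higher, and Scd1 and Fads2 were lower. Calls were made with limma at a Benjamini-Hochberg adjusted p below 0.05 over all 15639 tested probes, with each gene represented by its brightest tested probe. Among all 9352 tested genes 14.5% were higher and 11% were lower. Over all probes 2203 were higher and 1785 lower, against 3517 and 1391 when the arrays were scaled to a common median. The sterol arm had 2 of 17 genes higher (11.8%) and 3 lower (17.6%), and the fatty acid arm had 3 of 13 higher (23.1%) and 2 lower (15.4%). These shares lie near the background, so the counts alone do not set either arm apart. The median change was -0.17 on the log2 scale over the 17 sterol genes and 0.14 over the 13 fatty acid genes, beside 0.06 over all tested genes. Leaving out 1 array moved the sterol median to between -0.25 and -0.02, with -0.06 without wild type 2 and -0.02 without knockout 2, and the fatty acid median to between 0.06 and 0.19, with 0.06 without wild type 2. Over all genes with a probe, tested or not, the medians were -0.14 for 20 sterol genes, 0.005 for 15 fatty acid genes and 0.02 for the array. Median scaling, in place of a common distribution, moved the median of all tested genes to 0.25, that of the sterol arm to 0.06 and that of the fatty acid arm to 0.36. The sterol median therefore took the other sign, and stayed below that of all genes. By probe, 3 of 24 tested sterol probes were higher and 4 lower, and 3 of 14 fatty acid probes were higher and 2 lower, where 14.1% and 11.4% of all tested probes were. Without wild type 1, limma called 0 of the 17 sterol genes (2 higher and 2 lower at an unadjusted p below 0.05), and without wild type 2 it called 0 (2 higher and 3 lower). The calls over all probes were then 675 higher and 966 lower, and 664 higher and 812 lower.

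The promoters of 3 members are shown for their place in the results: Hmgcs1 begins the mevalonate branch, Idi1 had the largest fall of the sterol arm and Acss2 the largest rise of the fatty acid arm. RefSeq promoter windows of build GRCm38.p6, from 250 bases before to 50 after each start, were found for 29 of the 36 genes (37 windows). No window was available for Sqle, Fdps, Fdft1, Stard4, Fads1, Scd1 and Scd2, so these genes were not searched. The windows found were searched on both strands for TCACNCCAC, a sterol element that SREBP proteins bind, and for CCAAT, bound by the SREBP partner NF-Y. In the windows shown no matches overlap. Each sequence is written 5′ to 3′ along the gene's strand, with these motifs in capitals on whichever strand they lie, so that a CCAAT box on the opposite strand reads ATTGG.
Hmgcs1 (chr13:119690101-119690400, plus strand): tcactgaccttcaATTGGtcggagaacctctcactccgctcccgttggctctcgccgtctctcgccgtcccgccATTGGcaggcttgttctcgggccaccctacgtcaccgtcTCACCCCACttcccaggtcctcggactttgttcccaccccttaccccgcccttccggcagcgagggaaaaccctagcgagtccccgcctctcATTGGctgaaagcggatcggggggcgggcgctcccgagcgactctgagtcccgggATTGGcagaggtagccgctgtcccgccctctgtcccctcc
Idi1 (chr13:8885356-8885655, plus strand): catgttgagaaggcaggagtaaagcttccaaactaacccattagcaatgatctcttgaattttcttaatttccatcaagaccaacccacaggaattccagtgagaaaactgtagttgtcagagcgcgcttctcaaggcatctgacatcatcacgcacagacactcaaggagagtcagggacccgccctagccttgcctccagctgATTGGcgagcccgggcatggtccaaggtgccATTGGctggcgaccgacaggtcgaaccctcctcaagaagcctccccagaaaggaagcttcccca
Acss2 (chr2:155517793-155518092, plus strand): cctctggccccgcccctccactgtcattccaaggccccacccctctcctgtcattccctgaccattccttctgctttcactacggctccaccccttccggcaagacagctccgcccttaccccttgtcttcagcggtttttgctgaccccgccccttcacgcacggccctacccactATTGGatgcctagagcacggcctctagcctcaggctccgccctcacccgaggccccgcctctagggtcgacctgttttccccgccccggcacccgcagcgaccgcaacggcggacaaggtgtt
Among the member windows found, TCACNCCAC was present in that of Hmgcs1 alone, and it was present in 1.24% of all 32851 windows. CCAAT was present in 16 of 19 sterol windows and 10 of 18 fatty acid windows, and in 37.4% of all windows. GGGCGG, the GC box, was present in 16 of 19 sterol windows and 9 of 18 fatty acid windows, and in 35.7% of all windows. The windows shown hold 4 CCAAT matches for Hmgcs1, 2 for Idi1 and 1 for Acss2. A match describes letters in a window and does not show binding.

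The steps from acetyl-CoA to farnesyl diphosphate held 3 of the 5 sterol calls, all lower. The genes tested there were Hmgcs1, Pmvk, Idi1 and Fdps, and 11% of all tested genes were lower. The arm was divided into stretches with the results known, so the counts per stretch are descriptive only. Idi1, the isomerase that interconverts the isoprenoid building blocks, had log2 intensities of 8.19 and 8.12 in wild type and 7.53 and 7.15 in knockout islets. Both knockout arrays lay below both wild type arrays, and the change was -0.81 ± 0.16 (SE, adjusted p = 0.0158), 1.75-fold lower. The Idi1 call was lost with no filter on dim probes (adjusted p = 0.0508) and when either wild type array was left out. Fdps, which makes farnesyl diphosphate, had 10.96 and 10.88 in wild type and 10.43 on each knockout array, and fell by 0.49 ± 0.12 (adjusted p = 0.0318). Its call was lost when any 1 of the 4 arrays was left out (adjusted p between 0.0603 and 0.182). Pmvk, the phosphomevalonate kinase, had 7.91 and 8.04 in wild type and 7.52 and 7.36 in knockout islets, and fell by 0.54 ± 0.13 (adjusted p = 0.0320). The Pmvk call was lost with no filter on dim probes (adjusted p = 0.0510), and without knockout 2 or either wild type array. With median scaling Fdps was at -0.18 and Pmvk at -0.37, neither past the test, which is -0.43 and -0.61 relative to the median of all genes under that scaling.

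Hmgcs1, the synthase that commits acetyl-CoA units to this route, was bright on every array, at 11.88 and 11.90 in wild type and 11.78 and 11.37 in knockout islets. The genotypes did not overlap, but knockout 1 lay close to the wild type arrays and knockout 2 apart from them. Its change of -0.31 (95% interval -0.72 to 0.09) did not pass (adjusted p = 0.216). The mevalonate kinase gene Mvk and the decarboxylase gene Mvd, on either side of Pmvk in the route, were not well above background on any array, nor was Fdft1, the squalene synthase gene that follows Fdps. Of the 7 listed genes between acetyl-CoA and squalene, 4 were therefore tested.

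The enzymes that turn squalene into cholesterol gave 2 calls, at either end of that stretch, both higher. The other tested genes of that stretch had no call, and 14.5% of all tested genes were higher. Sqle, the squalene epoxidase and a main control point of the pathway, had 10.70 and 10.83 in wild type and 11.56 and 11.18 in knockout islets. Both knockout arrays exceeded both wild type arrays, and Sqle rose by 0.61 ± 0.16 (adjusted p = 0.0410). The Sqle call was lost with no filter on dim probes (adjusted p = 0.101), and without knockout 1 or either wild type array. A dimmer Sqle probe, not well above background on the wild type arrays, was at 6.61 and 5.97 on the knockout arrays and was at least 1.52-fold higher (adjusted p = 0.0177). It entered the test through the knockout arrays alone, where it is high, so it adds no independent support, and it did not pass with no filter on dim probes (adjusted p = 0.0766). Dhcr7, the reductase of the last step to cholesterol, had 6.77 and 6.72 in wild type and 7.46 and 7.45 in knockout islets. The arrays of each genotype were nearly level, and Dhcr7 rose by 0.71 ± 0.12 (adjusted p = 0.00957), 1.64-fold. The Dhcr7 call was lost when either wild type array was left out.

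Between them lay 8 genes with a tested probe and no call. Ebp, the sterol isomerase, came closest, at 9.46 and 9.37 in wild type and 9.80 and 9.85 in knockout islets, with no overlap and a change of 0.41 ± 0.12 (adjusted p = 0.0542). Ebp passed under 8 of the 14 alternative settings, with adjusted p between 0.0118 and 0.247 over all of them. The lanosterol synthase gene Lss (-0.17), the demethylase gene Cyp51 (-0.20), Msmo1 (-0.12) and Nsdhl (-0.28), both of which remove the methyl groups at the same carbon, each took the other sign with median scaling, at 0.02 to 0.15. Hsd17b7, a ketoreductase of the same complex, was at -0.41, with knockout 1 at 7.93 beside 7.97 and 8.13 in wild type and knockout 2 at 7.35. Without knockout 1 it was called lower. Sc5d (0.06) and Tm7sf2 (-0.06), dim probes of a desaturase and a reductase, had overlapping genotypes. A dimmer Nsdhl probe, not well above background on the wild type arrays, was higher on the knockout arrays by at least 1.11-fold without passing (adjusted p = 0.0609), and the brighter one did not pass either (adjusted p = 0.149). The dimmer probe entered the test through the knockout arrays alone, where it is high.

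The regulators and the transporter of the sterol arm gave no call with their brightest probes. Insig1, which holds the SREBP complex in the endoplasmic reticulum, was not well above background on the wild type arrays and reached 5.88 and 5.65 on the knockout arrays, at least 1.06-fold higher (adjusted p = 0.0736). This probe entered the test through the knockout arrays alone, where it is high, and no other Insig1 probe was tested. Srebf2, the SREBP gene of the sterol arm, had 8.94 and 9.13 in wild type and 9.01 and 8.88 in knockout islets, overlapping values with a change of -0.09. Its dimmer probes were at -0.28 and -0.71, and the last of these, at 7.25 and 7.26 in wild type and 6.75 and 6.33 in knockout islets, passed (adjusted p = 0.0277). The call of that last probe was lost under 4 of 12 alternatives. These were no filter on dim probes (adjusted p = 0.0803) and the removal of wild type 1, wild type 2 or knockout 2. The 3 Srebf2 probes thus gave different sizes of change, from -0.71 to -0.09. Stard4, a cytosolic sterol carrier, had probes at -0.36 and -0.30 with no overlap between genotypes, and neither passed (adjusted p = 0.126 and 0.121).

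**Figure D1:**
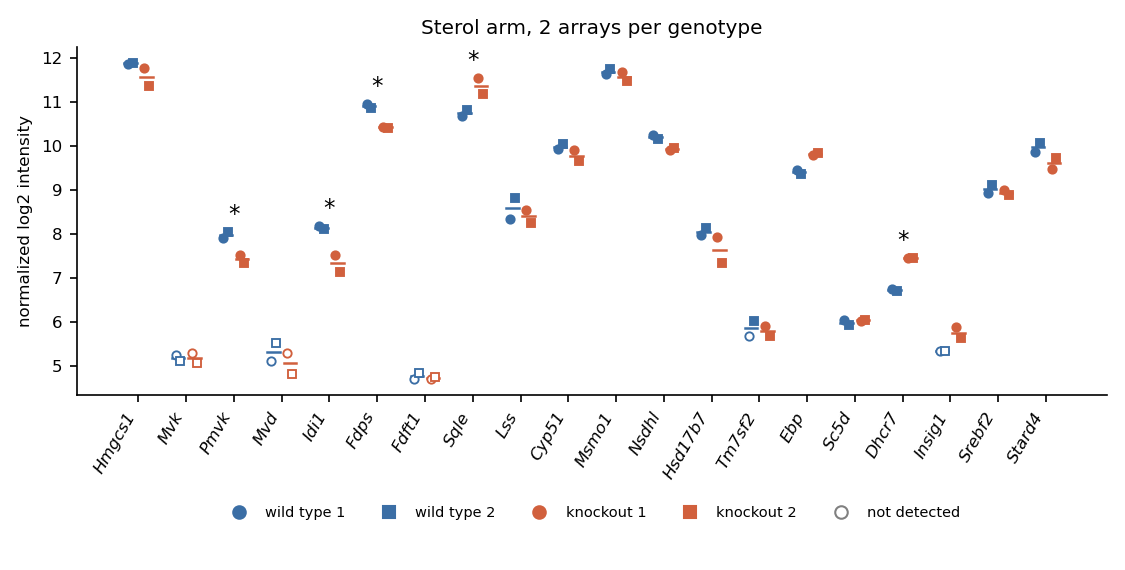
Normalised log2 intensity (vertical axis) of the 20 sterol arm genes, in pathway order with regulators last, on the 2 wild type and 2 knockout arrays. Symbols are single arrays, open where the probe was not detected, bars are means of 2 arrays, and asterisks mark adjusted p below 0.05. Idi1, Fdps and Pmvk lay lower and Sqle and Dhcr7 higher in knockout islets, and levels of different genes are not comparable.

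Of the enzymes that supply acetyl-CoA, the acetate-using one differed between the genotypes. Acss2, which makes acetyl-CoA from acetate in cytosol and nucleus, had 8.74 and 8.69 in wild type and 10.13 and 10.23 in knockout islets. The gap between genotypes was many times the gap within them, and Acss2 rose by 1.47 ± 0.12 (adjusted p = 0.000767), 2.77-fold. It was called higher under all 14 alternative settings, at 1.31 to 1.74. Acly, which cleaves citrate to acetyl-CoA and was near the top of the intensity range, had 14.41 and 14.63 in wild type and 14.85 and 14.78 in knockout islets, a change of 0.29 that did not pass (adjusted p = 0.166). Bright probes can be compressed on bead arrays, and this was not tested.

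The enzymes that extend acetyl-CoA to palmitate gave no call. Acaca, the main cytosolic acetyl-CoA carboxylase, had 10.01 and 9.85 in wild type and 10.12 and 10.03 in knockout islets, a change of 0.14 with a 95% interval of -0.17 to 0.46. Acacb, the carboxylase at the mitochondrial membrane, was at -0.002 with overlapping genotypes, and its sign varied with the setting. Fasn, the fatty acid synthase, had 11.53 and 11.69 in wild type and 11.29 and 11.15 in knockout islets. Both knockout arrays lay below both wild type arrays, and the change of -0.39 ± 0.13 did not pass (adjusted p = 0.0793). Fasn was called lower under 4 of the 14 alternatives, and was at -0.11 with median scaling (adjusted p between 0.0271 and 0.690 over all of them).

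The desaturases included the largest fall of either arm, that of Scd1, and a rise of Fads1. Scd1, the stearoyl-CoA desaturase that makes oleate, had 8.45 and 8.71 in wild type and 5.52 and 6.25 in knockout islets. It was detected on both wild type arrays and on knockout 2, but not on knockout 1, so the wild type values stood well above background and the knockout values at or near it. Scd1 thus entered the test through the wild type arrays alone, where it is high. Scd1 fell by 2.69 ± 0.25 on the log2 scale (adjusted p = 0.00113). The size depends on the background correction, with -1.93 without one and -1.80 in the authors' processed values, and no exact fold is given against values at background. Scd1 was called lower under each of the 13 alternatives that tested it, at -3.04 to -1.80. Its neighbour in the genome Scd2, which has the same activity and is separated from Scd1 on chromosome 19 by 1 protein-coding gene, had 12.02 and 12.00 in wild type and 11.90 and 11.33 in knockout islets. Its change of -0.40 (95% interval -0.89 to 0.09) did not pass (adjusted p = 0.190), and it was called lower without knockout 1. The 95% interval of Scd1, -3.30 to -2.08, holds for this background correction alone, and the values of -1.93 and -1.80 given above lie outside it. It is therefore not set against that of Scd2. The difference between both genes' changes was not itself tested.

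Fads1 and Fads2, adjacent protein-coding genes on chromosome 19, encode the front-end desaturases that act in turn on polyunsaturated fatty acids, Fads2 before Fads1. Fads1 had 11.31 and 11.54 in wild type and 12.40 and 12.43 in knockout islets. It rose by 0.99 ± 0.14 (adjusted p = 0.00477), 1.99-fold, and was called higher under all 14 alternatives, at 0.86 to 1.25. Fads2 had 6.26 and 6.32 in wild type and 5.87 and 5.72 in knockout islets, close to background on all arrays, and fell by 0.49 ± 0.13 (adjusted p = 0.0364). The Fads2 call was lost under 9 of its 13 alternatives, whereas its change stayed negative under each, at -0.54 to -0.26. On all 4 arrays a second probe of each gene was not well above background.

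Markers of adipocytes, cells rich in Scd1 and other lipogenic transcripts, were at or near background. Of 9 adipocyte markers with a probe, 7, among them Plin1, Lep, Cidec and Fabp4, were not tested because they were not above background. Adipoq was detected on the wild type arrays alone, through which it entered the test, and was at least 1.11-fold higher there without passing (adjusted p = 0.187). Pparg rose by 0.67 ± 0.15 (adjusted p = 0.0244). The summed intensity of the tested adipocyte markers was 138 to 163 in wild type and 195 to 203 in knockout islets. On the same arrays the lymphocyte markers had a median change of -3.46, and the part of lymphocytes in the Scd1 fall was not tested.

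The elongases gave no call, and a glycerolipid enzyme was higher. Elovl5, an elongase of polyunsaturated fatty acids, had 12.02 and 12.18 in wild type and 12.42 and 12.35 in knockout islets, a change of 0.29 that passed with median scaling alone. Elovl1, an elongase of very long chains, was at 0.27 with no overlap between genotypes. Elovl6, which extends palmitate to stearate, had probes at -0.31 and 0.02, neither past the test. Lpin1, a phosphatidate phosphatase on the way to triglyceride, had 6.80 and 6.77 in wild type and 7.43 and 7.18 in knockout islets. It rose by 0.52 ± 0.14 (adjusted p = 0.0396), and lost its call under 6 of 14 alternatives, among them the removal of wild type 1, wild type 2 or knockout 1. Gpam, which starts glycerolipid synthesis, and Srebf1, the SREBP gene of the fatty acid arm, were not well above background on any array.

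**Figure D2:**
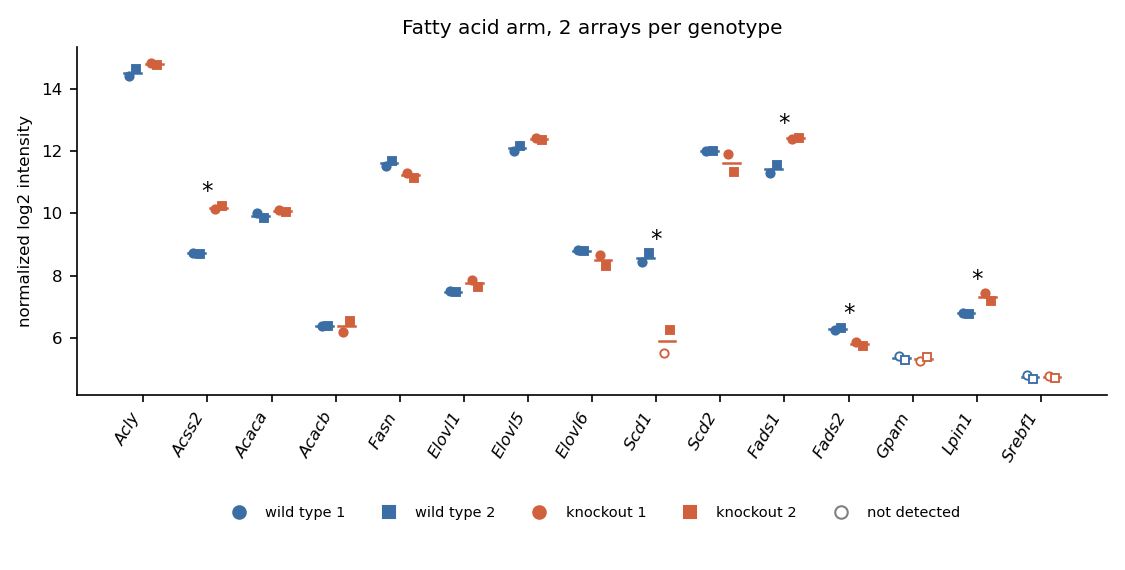
Normalised log2 intensity (vertical axis) of the 15 fatty acid arm genes with a probe, in order of function, on the 2 wild type and 2 knockout arrays. Symbols are single arrays, open where the probe was not detected, bars are means of 2 arrays, and asterisks mark adjusted p below 0.05. Acss2, Fads1 and Lpin1 lay higher and Scd1 and Fads2 lower in knockout islets.

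The plot of changes for all 38 tested member probes sets the spread between probes and between scalings beside the standard errors. Median scaling moved most bright probes upward, which turned the small negative changes of Lss, Cyp51, Msmo1, Nsdhl, Srebf2 and Acacb positive and left the direction of every called member as it was. Cyclic loess gave the same sign as the main values for the brightest probe of each of the 30 tested genes.

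**Figure D3:**
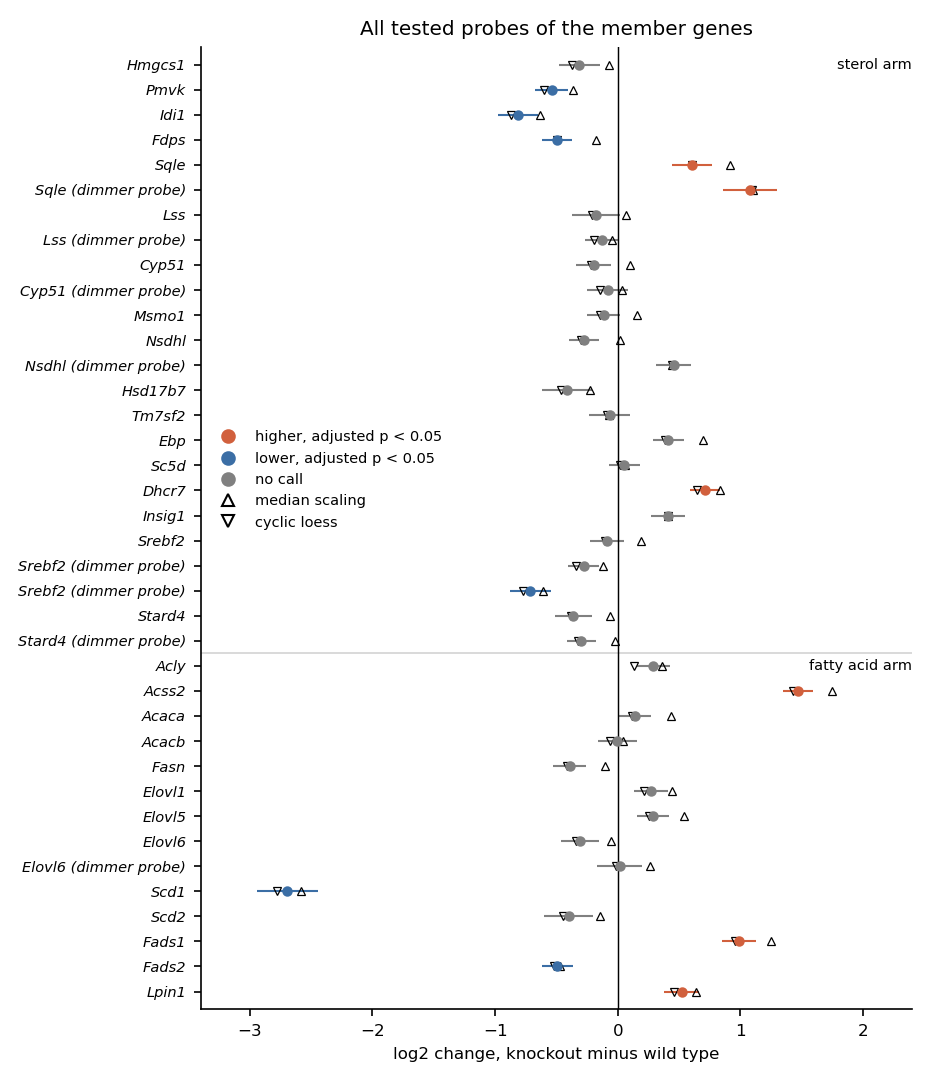
Log2 change, knockout minus wild type (horizontal axis), of all 38 tested probes of the member genes, grouped by arm. Filled points are the main values with bars of 1 SE, coloured by call, and open triangles are the changes with median scaling (up) and cyclic loess (down). Scd1 at -2.69 and Acss2 at 1.47 lie farthest from 0.

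Among other genes of sterol handling, Abcg1, Erlin2, Rnf139 and Lrp8 were higher and Ggps1 was lower in knockout islets. Of 29 genes listed for sterol synthesis, SREBP processing, uptake, transport and efflux, 19 had a probe and 16 were tested, of which 4 were higher (25%) and 1 lower (6.25%), beside 14.5% and 11% of all tested genes, with a median of 0.29 (0.45 with median scaling, where the median of all genes was 0.25). Abcg1, a sterol exporter, had 10.75 and 10.79 in wild type and 11.46 and 11.35 in knockout islets and rose by 0.63 ± 0.12 (adjusted p = 0.0153), while its dimmer probe, at 0.42, did not pass (adjusted p = 0.0522). Erlin2, which takes part in the degradation of sterol-regulated proteins in the endoplasmic reticulum, rose by 0.66 ± 0.13 (adjusted p = 0.0142). Rnf139, a ubiquitin ligase of the same membrane, rose by 0.58 ± 0.13, detected on 1 of the 2 wild type arrays, and the lipoprotein receptor gene Lrp8, not well above background on the wild type arrays, was on the knockout arrays higher by at least 1.21-fold (adjusted p = 0.0230 and 0.0376). Both Rnf139 and Lrp8 entered the test through the knockout arrays alone, where they are high. The Lrp8 call was lost under 9 of 13 alternatives, among them the removal of any 1 array. The Rnf139 call was lost under 3 of 13, which were the removal of wild type 1, wild type 2 or knockout 1. Ggps1, which uses farnesyl diphosphate to make the longer geranylgeranyl diphosphate, had 7.14 and 7.69 in wild type and 6.56 and 6.50 in knockout islets. It fell by 0.88 ± 0.20 (adjusted p = 0.0227), in the same direction as Idi1 and Fdps of the preceding steps. The Ggps1 call was lost under 4 of 13 alternatives. These were no filter on dim probes (adjusted p = 0.0835) and the removal of wild type 2, knockout 1 or knockout 2.

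The brightest Insig2 probe, of the second Insig gene, did not pass at 0.43 (adjusted p = 0.0598), but another probe had 7.98 and 8.10 in wild type and 9.11 and 9.43 in knockout islets and rose by 1.23 ± 0.15 (adjusted p = 0.00333). A dimmer probe of Mbtps1, the protease that cuts SREBP proteins, likewise rose, by 0.78 ± 0.19 (adjusted p = 0.0274). Without wild type 1 the list had 1 gene higher and 1 lower, without wild type 2 it had 1 and 0, and without knockout 1 it had 2 and 0.

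Of 46 other genes of fatty acid supply, elongation, activation and glycerolipid synthesis, 42 had a probe and 29 were tested, of which 4 were higher and 4 lower (13.8% each), with a median of 0.08. These shares lie near the 14.5% and 11% of all tested genes. Acss1, the mitochondrial counterpart of Acss2, had 8.06 and 8.21 in wild type and 6.48 and 6.23 in knockout islets. Acss1 fell by 1.78 ± 0.15 (adjusted p = 0.000701), opposite to the rise of Acss2, and was called lower under each of the 13 alternatives that tested it. Hacd1, a dehydratase of chain elongation, rose by 0.79 ± 0.15 with its brightest probe and by 0.70 ± 0.17 with another (adjusted p = 0.0153 and 0.0287). The related gene Hacd4 was not well above background on the knockout arrays and was at least 1.30-fold lower there (adjusted p = 0.0263). It entered the test through the wild type arrays alone and did not pass with no filter on dim probes (adjusted p = 0.0687). Among the genes that activate fatty acids, Acsl4 rose by 0.64 ± 0.14 and Acsl5 by 0.50 ± 0.14 (adjusted p = 0.0225 and 0.0492), although the other 3 tested Acsl4 probes, at 0.22 to 0.45, did not pass. Agpat3 rose by 0.44 ± 0.13 and Agpat4 fell by 0.74 ± 0.19, both acyltransferases of glycerolipid synthesis, and Fabp5, a fatty acid binding protein gene, fell by 0.60 ± 0.14 (adjusted p = 0.0485, 0.0382 and 0.0290). Calls were lost under 7 of 14 alternatives for Agpat3, 6 of 14 for Acsl5 and 4 of 14 for Acsl4. For Agpat4 they were lost under 4 of 13, and for Fabp5 under 5 of 13. A dimmer probe of Lpin2, a relative of Lpin1, fell by 0.80 ± 0.16 (adjusted p = 0.0155), while the brightest, at -0.66, did not pass (adjusted p = 0.115).

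Genes of fatty acid oxidation had 5 of 13 tested members higher and 0 lower in limma (6 and 0 at an unadjusted p below 0.05), beside 14.5% higher and 11% lower among all tested genes, with a median of 0.27 (0.54 with median scaling). The number higher was 1 without wild type 1, 0 without wild type 2 (3 at an unadjusted p below 0.05), 2 without knockout 1, and 8 with median scaling. Of the 21 listed, 19 had a probe. Hadh, the short-chain dehydrogenase of the oxidation cycle, had 9.39 and 9.14 in wild type and 10.12 and 10.08 in knockout islets and rose by 0.83 ± 0.14 (adjusted p = 0.00912), with its other probe at 0.74 and also called. Hadhb, a subunit of the trifunctional protein, had 12.19 and 12.17 in wild type and 12.92 and 12.76 in knockout islets and rose by 0.66 ± 0.13 (adjusted p = 0.0150), with a dimmer probe at 0.86 and also called. Acadm and Acadl, which open the cycle on medium and long chains, rose by 0.64 ± 0.13 and 0.64 ± 0.17 (adjusted p = 0.0154 and 0.0358), although a second tested Acadm probe, at 0.18, did not pass (adjusted p = 0.443). The Acadm call was lost under 3 of 14 alternatives and the Acadl call under 4 of 13. Decr1, needed for unsaturated chains, was not well above background on the wild type arrays and at least 1.28-fold higher (adjusted p = 0.0396). It entered the test through the knockout arrays alone, where it is high, and its call was lost under 8 of 13 alternatives, among them no filter on dim probes (adjusted p = 0.0738) and the removal of any 1 array. Cpt1a, the gate of mitochondrial entry, was at 0.52 and did not pass (adjusted p = 0.0560). Over both fatty acid lists together, 9 of 42 tested genes were higher and 4 lower, against 1 and 1 without wild type 1, 0 and 1 without wild type 2, and 5 and 1 without knockout 1.

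**Figure D4:**
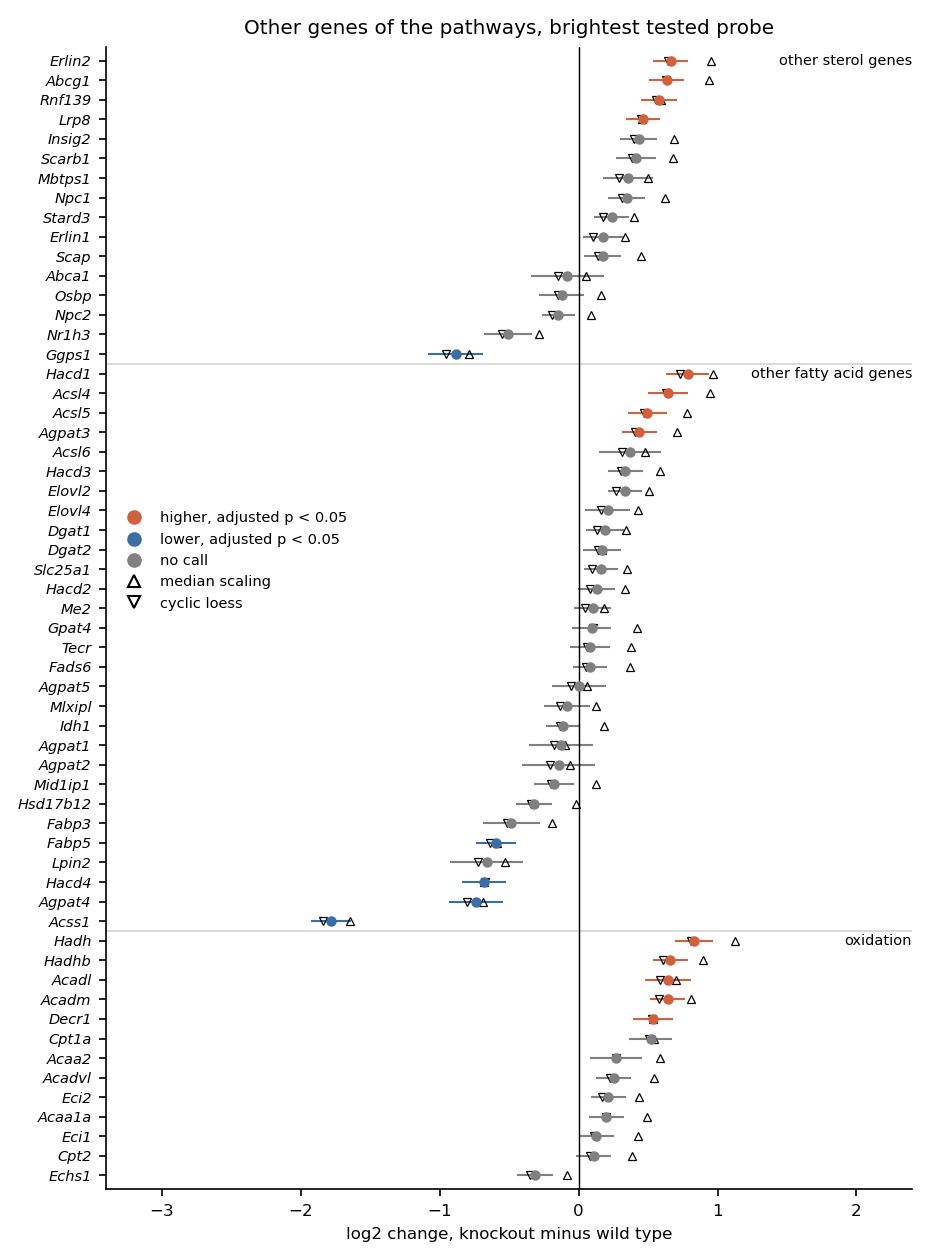
Log2 change, knockout minus wild type (horizontal axis), of the brightest tested probe of 58 other genes of sterol handling, fatty acid metabolism and fatty acid oxidation. Filled points are the main values with bars of 1 SE, coloured by call, and open triangles are the changes with median scaling (up) and cyclic loess (down). Acss1 at -1.78 lies farthest below 0, and 12 of 13 oxidation genes lie above 0, beside 5226 of all 9352 tested genes.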

How the data were processed

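Per the file headers, the scanner table gives every probe on each array a linear mean intensity with its bead error and bead count. The authors also deposited a detection p-value, which compares the probe with negative controls. A second deposited table holds the authors' processed log2 values of 46614 probes, with the method of normalization not given in the sources used here. Intensities were background corrected with normexp in limma 3.58.1 (R 4.3.3) using the deposited detection p-values and adding 16, an offset that shrinks changes of dim probes, then log2 transformed and quantile normalised. Genotypes were compared with lmFit and eBayes (6.24 degrees of freedom). The number of arrays limits the precision.

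A probe below background throughout a genotype has only a bound there. That bound compares the brighter mean with a floor, which on each array is the lowest value of any detected probe, or the probe's value if larger. Probe names came from the platform annotation, with 1 symbol for 29965 probes, several for 10 and none for 16657. The members and lists were chosen with earlier results of these data known. All members were named or given by range. Up to 8 called genes of each other list were named by adjusted p. Further probes of listed genes, such as those of Insig2, Mbtps1 and Lpin2, and Cpt1a were named after their values were seen. Replicates differed by more than 1.96 bead standard errors in 26.8% of tested probes for wild type and 35.9% for knockout. Each array was counted as 1 sample, and this comparison with bead noise does not tell separate samples from repeats of one.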

Additional observations from a re-analysis of the deposited data

How the results depend on the processing

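The changes of 50 member and list probes were recomputed under up to 14 other settings. Of these values 537 kept direction and side of the threshold, 111 lost the call, 16 gained it and 17 changed sign. The signs that changed belonged to uncalled genes. With median scaling Msmo1 was at 0.15, Nsdhl 0.0227, Cyp51 0.10, Srebf2 0.19, Lss 0.0675 and Acacb 0.04. Acacb was at 0.0011 with an offset of 50 and with no background correction and at 0.0149 with the authors' values, and Nsdhl was at 0.0906 as a mean of its tested probes. Leaving out 1 array gave -0.18 to 0.0077 for Srebf2, -0.41 to 0.0541 for Lss, -0.18 to 0.17 for Acacb, -0.0015 to 0.12 for Sc5d and -0.25 to 0.11 for Tm7sf2.

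Among counts, median scaling gave 3517 probes higher (1391 lower, so 71.7% of calls were higher beside 55.2%), and 1 sterol gene lower, 1 fatty acid gene lower and 14 other fatty acid genes (oxidation included) higher. With no filter on dim probes 1 sterol gene, 0 other sterol genes (2 at an unadjusted p below 0.05) and 1 other fatty acid gene were lower in limma. With detection below 0.01 on all 4 arrays, 1012 probes, 0 fatty acid genes, 0 other sterol genes and 0 other fatty acid genes were lower in limma (1, 1 and 4 genes at an unadjusted p below 0.05), a filter that drops genes dim in the knockout, Scd1 and Acss1 among them. Leaving out 1 array gave 664 to 2212 probes higher and 812 to 1769 lower, 0 to 2 sterol genes higher and 0 to 3 lower, 2 to 3 fatty acid genes higher and 1 to 3 lower, 1 to 4 other sterol genes higher and 0 to 1 lower, and 0 to 7 other fatty acid genes higher and 1 to 6 lower, in limma fits that take the lone array of a genotype to vary like the other pair. With the replicate block 1 fatty acid gene (Fads2 lost its call) and 2 other sterol genes were lower. The replicate numbers share no stated source and their deviations correlated at 0.02, so the samples share only a number. Beyond what is stated here the cause was not tested. Dim probes such as Fads2 and Insig1 limit what their changes can show.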
